A study of Mus musculus with 16 samples.

Results

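Genes of the plasma cell and of the antibody constant regions were followed in mammary fat of lean, obese and formerly obese mice. The 10 genes were taken by their symbols from a table of 23179 genes, where each stands once: Igkc, Ighm, Ighg2b and Igha, which encode constant parts of antibody chains, the secretory partners Jchain and Mzb1, the transcription factors Irf4 and Prdm1, and the surface proteins Sdc1 and Tnfrsf17. All 10 passed the filter on low values, as did 21218 genes of the table. RNA-Seq was performed on mammary fat pads opposite a tumor from 16 female wild-type C57BL/6N mice (C57BL/6NCrl in the study's methods), 4 per group, with 1 library per mouse. CON-LFD mice were lean and ate the low-fat control diet (D12450J) throughout, and DIO-HFD mice ate a high-fat diet (D12492, 60% fat) and remained obese. DIO-LFD mice were made obese and then switched to the low-fat diet, and DIO-VSG mice were made obese, underwent vertical sleeve gastrectomy (VSG) and were then fed the low-fat diet. All mice without VSG had a sham operation. Mice arrived at 8 weeks of age, ate their first diet for 15 weeks before surgery and were injected 7 weeks later, in week 22, with E0771 mouse mammary cancer cells in fat pad 4. Pad 9 was collected 4 weeks after that. All groups therefore carried a tumor and had an operation, and no tumor-free mouse was sampled. The labels also list the E0771 line for these samples, although their tissue is normal contralateral mammary tissue.

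B cells that recognise antigen can become plasma cells, which secrete their antibody in bulk. The switch is driven by Irf4 and Prdm1 (Blimp-1), and it raises transcription of the antibody chains and of the machinery that folds and exports them. An antibody joins heavy chains, whose constant gene sets the class (Ighm for IgM, Ighg2b for IgG2b, Igha for IgA), with light chains, which in mice mostly use the kappa constant gene Igkc. Jchain links IgM and IgA into polymers, and Mzb1 is a chaperone of the endoplasmic reticulum in B and plasma cells. Sdc1 (CD138) is the usual surface marker of plasma cells but is also abundant on epithelium, and Tnfrsf17 (BCMA) receives survival signals in long-lived plasma cells. Adipose tissue holds B cells and antibody-secreting cells, and a mammary fat pad can also contain a lymph node. In bulk tissue, fewer cells of a type and less RNA per cell cannot be told apart.

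The classes are read from constant regions that differ in sequence, shown here by the first 90 coding bases of each (GRCm38, GENCODE M21, 5′ to 3′ on the coding strand), which lie at chr12:113422641-113422730 (minus strand), chr12:113307844-113307933 (minus strand), chr12:113260147-113260236 (minus strand) and chr6:70726435-70726524 (plus strand) in the first coding exon of each gene.
Ighm: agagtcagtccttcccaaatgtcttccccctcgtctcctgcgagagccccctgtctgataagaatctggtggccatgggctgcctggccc
Ighg2b: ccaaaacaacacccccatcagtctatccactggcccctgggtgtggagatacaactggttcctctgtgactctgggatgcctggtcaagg
Igha: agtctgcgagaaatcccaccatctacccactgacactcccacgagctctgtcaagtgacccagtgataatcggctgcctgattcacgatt
Igkc: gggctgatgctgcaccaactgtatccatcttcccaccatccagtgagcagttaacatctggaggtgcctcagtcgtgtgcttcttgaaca

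No window of 76 bases, the read length, in the annotated transcripts of Ighm, Igha or Igkc occurred in a transcript of another gene. In Ighg2b, 17 of 2602 windows (0.653%) did, 13 of them in Ighg3. The longest coding runs that Ighg2b shares with its neighbours are given because they are where a read cannot be assigned, with the shared run in capitals and 12 bases of Ighg2b on either side. The first has 88 bases in common with Ighg3, starts at coding base 1036 of 1214 and lies in the membrane form, and the second has 78 bases in common with Ighg2c and starts at coding base 565.
Ighg2b with Ighg3: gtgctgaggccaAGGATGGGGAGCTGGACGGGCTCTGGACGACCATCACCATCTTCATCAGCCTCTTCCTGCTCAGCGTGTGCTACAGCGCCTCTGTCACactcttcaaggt
Ighg2b with Ighg2c: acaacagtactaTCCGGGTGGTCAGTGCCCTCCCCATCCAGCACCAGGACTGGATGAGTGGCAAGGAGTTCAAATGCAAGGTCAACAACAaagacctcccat

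Library totals ran from 46907377 to 57610899 reads, so depth limited only the lowest values. The fat markers Adipoq (30428 to 123530 normalized counts, that is, counts divided by a library's size factor) and Plin1 were abundant in all 16 libraries, and the epithelial marker Epcam was present (2441 to 9583). The lymphoid content was uneven. Ms4a1, a B cell marker, read 1893, 28.6, 9711 and 89.4 normalized counts in CON-LFD replicates 1 to 4 and 12252, 391, 60.0 and 6724 in DIO-HFD, against 2117 to 4874 in DIO-LFD and 7512 to 9233 in DIO-VSG. Cd3e, Ccl21a and Cxcl13, markers of T cells and lymph node stroma, were likewise at or near their lowest in replicates 2 and 4 of CON-LFD and replicates 2 and 3 of DIO-HFD, with the exception of Cxcl13 in CON-LFD replicate 4 (690.3 against 910.5 in replicate 1). The summed level of the 16 B cell markers spanned 9164 to 111543 in CON-LFD, 15699 to 141063 in DIO-HFD, 39666 to 63844 in DIO-LFD and 101054 to 115863 in DIO-VSG, and none of the 16 was at 0 in any library. Collection of the pads with or without their lymph node was not described in the sources used here.

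The kappa light chain gene Igkc was the most abundant of the 10 genes per length, with a mean over 16 libraries of 56999 normalized counts per kb, ahead of Ighm with 28513. Igkc read 20580, 89.1, 90216 and 2432 normalized counts in the 4 CON-LFD libraries and 99764, 2501, 689 and 57167 in DIO-HFD. In DIO-LFD it read 11205, 12300, 29856 and 19647, and in DIO-VSG 26476, 53110, 38705 and 20439. Within CON-LFD the highest library was 1013 times the lowest, and within DIO-HFD 145 times, whereas DIO-LFD and DIO-VSG spanned 2.66 and 2.60 times. Each group's range overlapped that of every other group.

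Ighm, the heavy chain of IgM, read 21665, 1006, 83519 and 14021 in CON-LFD, 137347, 4422, 12844 and 60824 in DIO-HFD, 19951, 21515, 27276 and 41098 in DIO-LFD and 45058, 87583, 60274 and 42708 in DIO-VSG. The lowest DIO-VSG library was thus above the highest DIO-LFD library, while the DIO-HFD and CON-LFD libraries lay on both sides of them. Ighm did not follow Igkc in 3 libraries. The ratio of Ighm to Igkc was 11.3 in CON-LFD replicate 2, 5.77 in CON-LFD replicate 4 and 18.6 in DIO-HFD replicate 3, and between 0.914 and 2.09 in all the others. These are 3 of the 4 libraries lowest in Ms4a1.

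Ighg2b, the heavy chain of IgG2b, varied most. It read 7906, 9.54, 27536 and 170 in CON-LFD, 37260, 637, 67.7 and 33489 in DIO-HFD, 2221, 1160, 26426 and 2459 in DIO-LFD and 6315, 11192, 9456 and 1353 in DIO-VSG. DIO-LFD replicate 3 stood above the other DIO-LFD libraries, and its neighbour on the chromosome, Ighg2c, was not raised there, with 4096 against 1767, 4131 and 3487. Igha, the heavy chain of IgA, was on average the scarcest of the 4 constant genes, with 439, 14.8, 1230 and 352 in CON-LFD, 2171, 63.1, 8.73 and 2214 in DIO-HFD, 708, 200.4, 219 and 226 in DIO-LFD and 534, 735, 407 and 919.6 in DIO-VSG. In CON-LFD replicates 2 and 4 Ighg2b was lower still.

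Jchain and Mzb1 ranked the libraries of CON-LFD and those of DIO-HFD in the same order as Igkc, but not in the order of Ighm in DIO-HFD. Jchain read 1947, 24.4, 10131 and 488 in CON-LFD, 12989, 355, 108 and 7146 in DIO-HFD, 1084, 979, 2507 and 2989 in DIO-LFD and 2857, 6453, 4413 and 2162 in DIO-VSG. Mzb1 read 185, 5.30, 1163 and 23.1 in CON-LFD, 1630, 66.4, 9.82 and 811 in DIO-HFD, 223, 462, 565 and 359.6 in DIO-LFD and 805, 884, 884 and 629.9 in DIO-VSG. For Mzb1 the highest DIO-VSG library was 1.40 times the lowest, against 219 times within CON-LFD, and all DIO-VSG libraries were above all DIO-LFD libraries.

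The transcription factors were steadier. Irf4 read 1653, 3307, 5133 and 1723 in CON-LFD and 3978, 776, 539 and 2521 in DIO-HFD, 2575, 3814, 2863 and 2123 in DIO-LFD and 2466, 2742, 4669 and 2721 in DIO-VSG, so that its lowest values were in DIO-HFD replicates 2 and 3. Prdm1 read 228, 182, 493 and 267 in CON-LFD, 743, 315, 403 and 374 in DIO-HFD, 272, 327, 273 and 259 in DIO-LFD and 335, 439.8, 328 and 278 in DIO-VSG. The ranges of Prdm1 overlapped between DIO-HFD and both DIO-LFD and CON-LFD.

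The surface proteins behaved differently from each other and from the antibody genes. Sdc1 read 4251, 3180, 1955 and 3842 in CON-LFD, 1900, 5263, 6064 and 2924 in DIO-HFD, 2927, 3916, 2168 and 2366 in DIO-LFD and 1928, 2980, 2829 and 2189 in DIO-VSG. Its 2 highest libraries, DIO-HFD replicates 2 and 3, were among those lowest in Igkc, and its lowest, DIO-HFD replicate 1, was the highest in Igkc. Tnfrsf17 was low throughout, at 24.3, 10.6, 36.9 and 39.2 in CON-LFD, 42.6, 39.8, 25.1 and 49.2 in DIO-HFD, 16.4, 14.9, 29.5 and 24.5 in DIO-LFD and 27.0, 36.9, 24.6 and 24.8 in DIO-VSG.

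**Figure D1:**
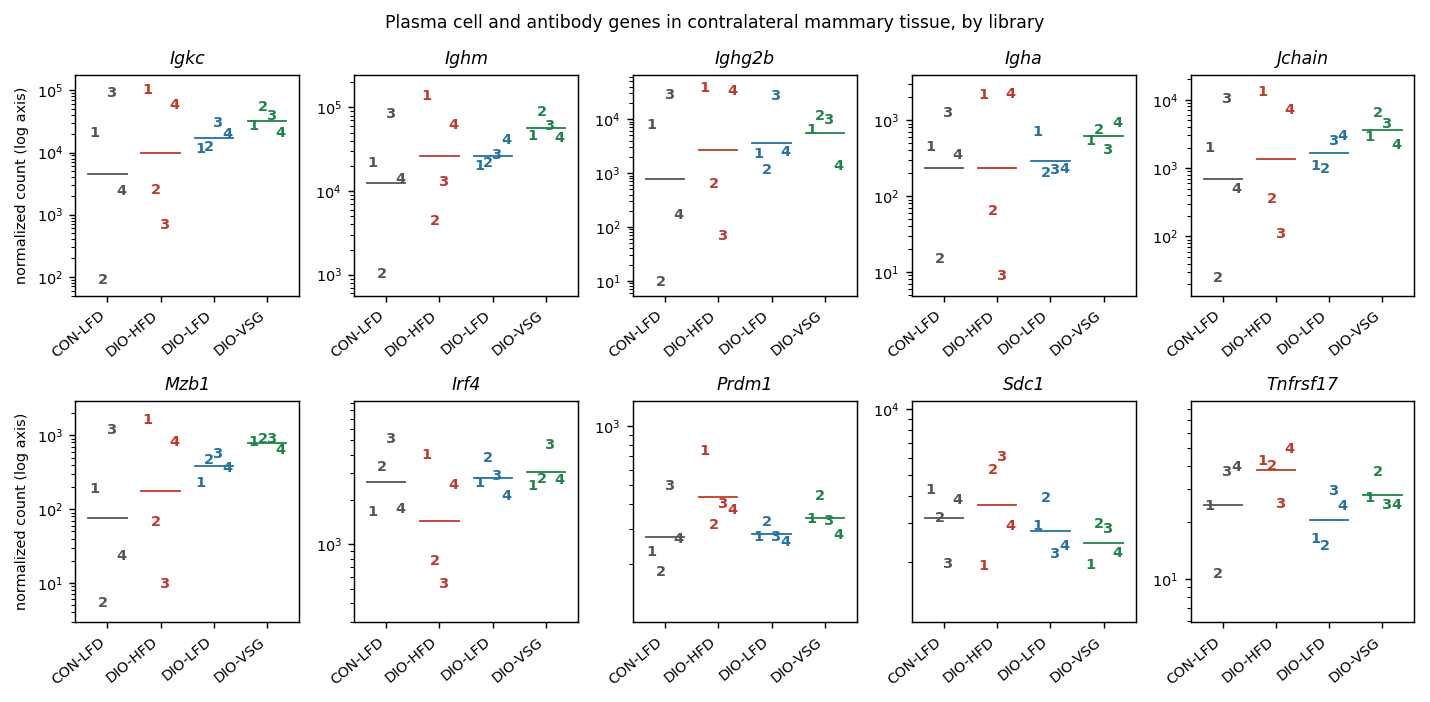
Normalized count (log axis) of the 10 genes in each library, by group; digits are replicate numbers and lines are group means of log2(normalized count + 1). Igkc spans 89.1 to 90216 in CON-LFD but 20439 to 53110 in DIO-VSG, and Sdc1 and Tnfrsf17 do not share that pattern.

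For the antibody genes, Jchain and Mzb1, the spread inside CON-LFD and DIO-HFD was larger than for at least 96.4% of genes. On the log2 scale the SD of Igkc was 4.33 in CON-LFD and 3.47 in DIO-HFD, against 0.65 in DIO-LFD and 0.61 in DIO-VSG, while the median SD of all genes tested was 0.35, 0.38, 0.26 and 0.21 in the same order. For Mzb1 the SD was 3.31, 3.33, 0.58 and 0.23. In DIO-VSG 53.6% of genes had a smaller SD than Mzb1, whereas in CON-LFD 99.3% did. The other antibody genes and Jchain kept a wide spread in DIO-VSG, from 80.7% of genes smaller for Ighm to 98.0% for Ighg2b. For Sdc1, Prdm1, Irf4 and Tnfrsf17 the share in CON-LFD and DIO-HFD ran from 53.5% (Tnfrsf17 in DIO-HFD) to 91.7% (Irf4 in DIO-HFD). Prdm1 in DIO-LFD (SD 0.15) was steadier than most genes, with 27.7% of genes below it. Differences in spread between groups were not tested.

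Relative to CON-LFD, DIO-HFD libraries held on average more of 8 of the 10 genes, with a median log2 fold change of 0.82 on the log2(normalized count + 1) scale, against 0.02 over all genes, of which 52.7% lay above 0. No difference passed the test. By limma with Benjamini-Hochberg adjustment over all genes, 0 of 10 were called (background 0.0377% of genes), 1 had an unadjusted p below 0.05 (background 12.9%), and limma-voom on recovered reads also called 0. That gene was Prdm1, 459 ± 193 (SD, n = 4 libraries) in DIO-HFD against 293 ± 138 in CON-LFD. Its log2 difference was 0.67 ± 0.29 (SE) with limma adjusted p = 0.359, falling to 0.41 without DIO-HFD replicate 1, and the p-values here measure the spread between libraries of single mice. On the same scale Igkc differed by 1.15 ± 1.83 (95% confidence interval -2.77 to 5.07) and Igha by -0.00 ± 1.58 (interval -3.38 to 3.38), so changes of several log2 units in either direction remained within the error. Irf4 was on average lower by this measure, at -0.88 ± 0.54 (limma adjusted p = 0.522), but it stood between -1.37 without DIO-HFD replicate 1 and -0.41 without DIO-HFD replicate 3, and at 0.22 with array weights. When limma weighted each library by its residual spread (array weights), 3 were called, Mzb1 (2.73, adjusted p = 0.045), Prdm1 (0.64, adjusted p = 0.032) and Tnfrsf17 (0.94, adjusted p = 0.0246), and these calls were not made in any other setting. Beside Prdm1, 7 of 14 epithelial markers were lower at an unadjusted p below 0.05 in the same comparison, and the part of the epithelial markers was not tested. Beside Mzb1, 15 of the 16 B cell markers had a log2 difference above 0. Without weights Mzb1 stood at 1.22 ± 1.54, between 0.02 without CON-LFD replicate 2 and 2.56 without DIO-HFD replicate 3, and at 0.17 ± 0.19 (limma adjusted p = 0.699) with the B cell score, a summary of these markers, in the fit.

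Relative to DIO-HFD, DIO-VSG had 7 of the 10 genes with a mean log2 difference above 0 and a median of 1.10, against 0.02 over all genes, of which 52.5% lay above 0. In the same comparison 15 of 16 B cell markers lay above 0 with a median of 2.63, and all 12 T cell markers with a median of 2.20. The values were 2.17 ± 1.54 for Mzb1, 1.71 ± 1.83 for Igkc, 1.40 ± 1.65 for Jchain and 1.10 ± 1.15 for Ighm (log2 fold change ± SE). Leaving out 1 library moved them to between 0.83 and 3.24 for Mzb1, 0.42 and 2.81 for Igkc, 0.18 and 2.48 for Jchain and 0.25 and 1.90 for Ighm. The highest value came without DIO-HFD replicate 1 for all 4, and the lowest without DIO-HFD replicate 3, or replicate 2 for Ighm. By limma, 0 of 10 were called (background 0%) and 0 had an unadjusted p below 0.05 (background 13.2%). limma-voom called 0. The smallest p belonged to Irf4, 1.09 ± 0.54 with limma adjusted p = 0.39 (0.62 without DIO-HFD replicate 3). Sdc1 stood at -0.58 ± 0.34 (-0.89 without DIO-HFD replicate 1 and -0.33 without replicate 3), with 2481 ± 503 normalized counts in DIO-VSG and 4038 ± 1951 in DIO-HFD. In linear means several antibody genes were ordered the other way, since 2 DIO-HFD libraries were very high: Igkc averaged 40030 ± 47672 in DIO-HFD and 34682 ± 14445 in DIO-VSG. With array weights limma called Tnfrsf17 (-0.80, limma adjusted p = 0.0235), and no other setting called a gene of the 10. The same weights turned 5 of the 7 genes negative, Jchain (-0.81), Ighm (-0.03), Ighg2b (-2.35), Igha (-1.52) and Igkc (-0.62).

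Weight loss by diet was read from DIO-LFD relative to DIO-HFD, where 7 of 10 genes had a mean log2 difference above 0, with a median of 0.30 against 0.01 over all genes, of which 51.6% lay above 0. Ighm was counted among the 7 at 0.00 ± 1.15. In this comparison 15 of 16 B cell markers (median 1.41) and 11 of 12 T cell markers (median 0.84) lay above 0. By limma 0 of 10 were called (background 0%), 1 had an unadjusted p below 0.05 (background 8.53%), and limma-voom called 0. Tnfrsf17, the survival receptor, averaged 21.3 ± 6.92 in DIO-LFD and 39.2 ± 10.2 in DIO-HFD, a log2 difference of -0.86 ± 0.38 with limma adjusted p = 0.552, and 1 DIO-HFD library (25.1) lay within the DIO-LFD range. Prdm1 stood at -0.62 ± 0.29 (limma adjusted p = 0.595), and at -0.36 without DIO-HFD replicate 1. With array weights limma called Tnfrsf17 (-1.04, limma adjusted p = 0.0202), and no other setting called a gene of the 10. The same weights turned 6 of the 7 genes negative, Jchain (-1.60), Mzb1 (-0.70), Ighm (-0.96), Ighg2b (-2.32), Igha (-2.83) and Igkc (-1.28).

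Both weight-loss groups ate the low-fat diet after obesity and differ by the operation. In DIO-VSG relative to DIO-LFD, 9 of 10 genes had a mean log2 difference above 0, with a median of 0.78 against -0.02 over all genes, of which 47.3% lay above 0. limma called 0 of 10 (background 0%), with 0 at an unadjusted p below 0.05 (background 9.71%), and limma-voom called 0. For 2 genes, Ighm and Mzb1, every DIO-VSG library was above every DIO-LFD library, as for 12.9% of all genes tested, and 18.8% of genes did not overlap in one direction or the other. Ighm averaged 58906 ± 20643 in DIO-VSG and 27460 ± 9622 in DIO-LFD (log2 difference 1.10 ± 1.15), and Mzb1 averaged 801 ± 119.8 and 402 ± 146 (1.06 ± 1.54). These SE come from the spread shared by all 4 groups, which CON-LFD and DIO-HFD widen. When only these 2 groups entered the fit, limma again called 0. The B cell markers moved with both genes, since 15 of the 16 had a log2 difference above 0 with a median of 1.19. With the B cell score in the fit Mzb1 stood at -0.25 ± 0.19 (limma adjusted p = 0.691) and Ighm at 0.24 ± 0.58 (limma adjusted p = 0.913).

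The comparisons with the lean controls reuse the same libraries and are not independent. In DIO-VSG relative to CON-LFD, 9 of 10 genes had a log2 difference above 0 (background 47.8%), limma called 0 (background 0%), and 1 had an unadjusted p below 0.05 (background 17.8%), and limma-voom called 0. Mzb1 reached 3.39 ± 1.54 with limma adjusted p = 0.275, beside 13 of 16 B cell markers at an unadjusted p below 0.05, and ranged from 2.19 without CON-LFD replicate 2 to 4.70 without CON-LFD replicate 3. In DIO-LFD relative to CON-LFD, limma called 0 of 10 (background 0.00471%), 0 had an unadjusted p below 0.05 (background 6.26%), and limma-voom called 0. There 8 of 10 had a log2 difference above 0 (background 53.1%), as did all 16 B cell markers (median 2.43). Mzb1 stood at 2.33 ± 1.54 (limma adjusted p = 0.868), or between 1.14 and 3.65 without those same libraries, and Sdc1 at -0.20 ± 0.34 (-0.43 without CON-LFD replicate 3 and -0.06 without CON-LFD replicate 1). Apart from DIO-VSG against DIO-LFD, 0 of the 10 genes had groups that did not overlap. The share of all genes without overlap was 4.76% for DIO-HFD vs CON-LFD, 6.59% for DIO-VSG vs DIO-HFD, 4.51% for DIO-LFD vs DIO-HFD, 7.02% for DIO-VSG vs CON-LFD and 3.53% for DIO-LFD vs CON-LFD.

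**Figure D2:**
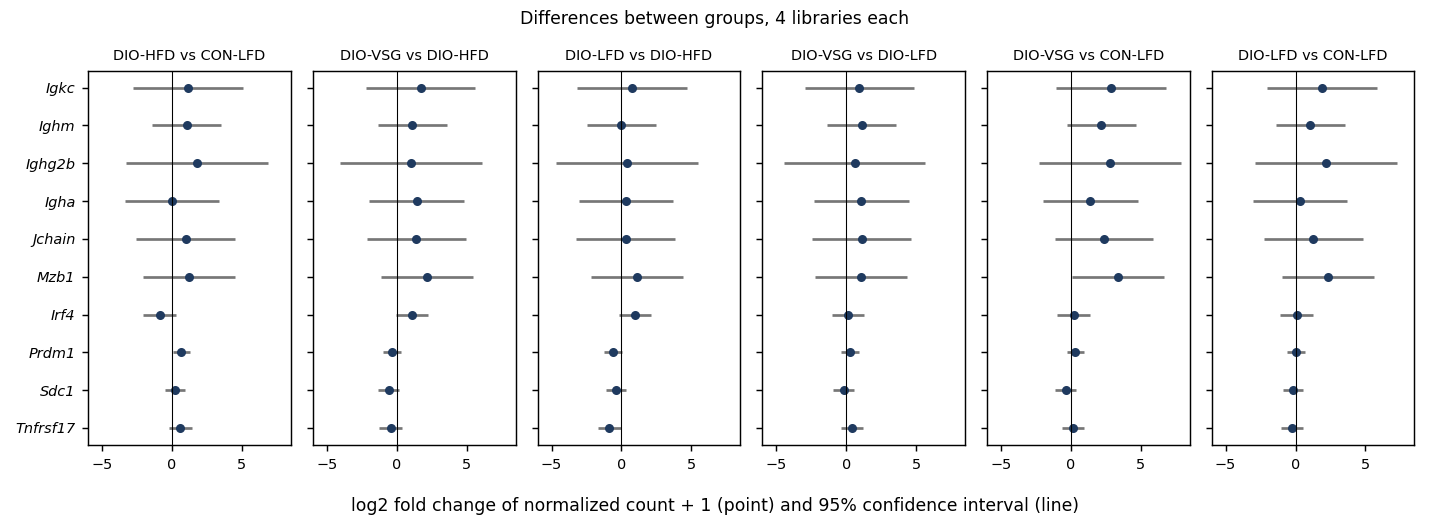
log2 fold change of the 10 genes (points) with 95% confidence intervals from limma (lines) for the 6 comparisons of 4 libraries against 4. Intervals of the antibody genes, Jchain and Mzb1 span several log2 units, as for Igkc in DIO-HFD vs CON-LFD (-2.77 to 5.07), while those of Prdm1 and Sdc1 are narrow.

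Across libraries, 6 of the genes (Jchain, Mzb1, Ighm, Ighg2b, Igha and Igkc, grouped after their values were seen) varied together, with Pearson r between 0.81 and 0.99 for their pairs. These are descriptions over 16 libraries that share groups, and the 4 lymphoid-poor libraries stand apart from the rest, so they carry no p. The r with the mean of the 16 B cell markers was 0.99 for Mzb1, 0.96 for Igkc, 0.94 for Jchain, 0.90 for Ighg2b, 0.89 for Ighm and 0.84 for Igha. It was 0.60 for Irf4, 0.48 for Prdm1, 0.36 for Tnfrsf17 and -0.69 for Sdc1. Among all the lists, Tnfrsf17 had its largest r with the macrophage and dendritic markers (0.75) and Prdm1 with the adipocyte markers (-0.73). The T cell markers gave nearly the same values, 0.97 for Mzb1 and 0.92 for Igkc, and the lymph node stroma markers 0.99 and 0.93.

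**Figure D3:**
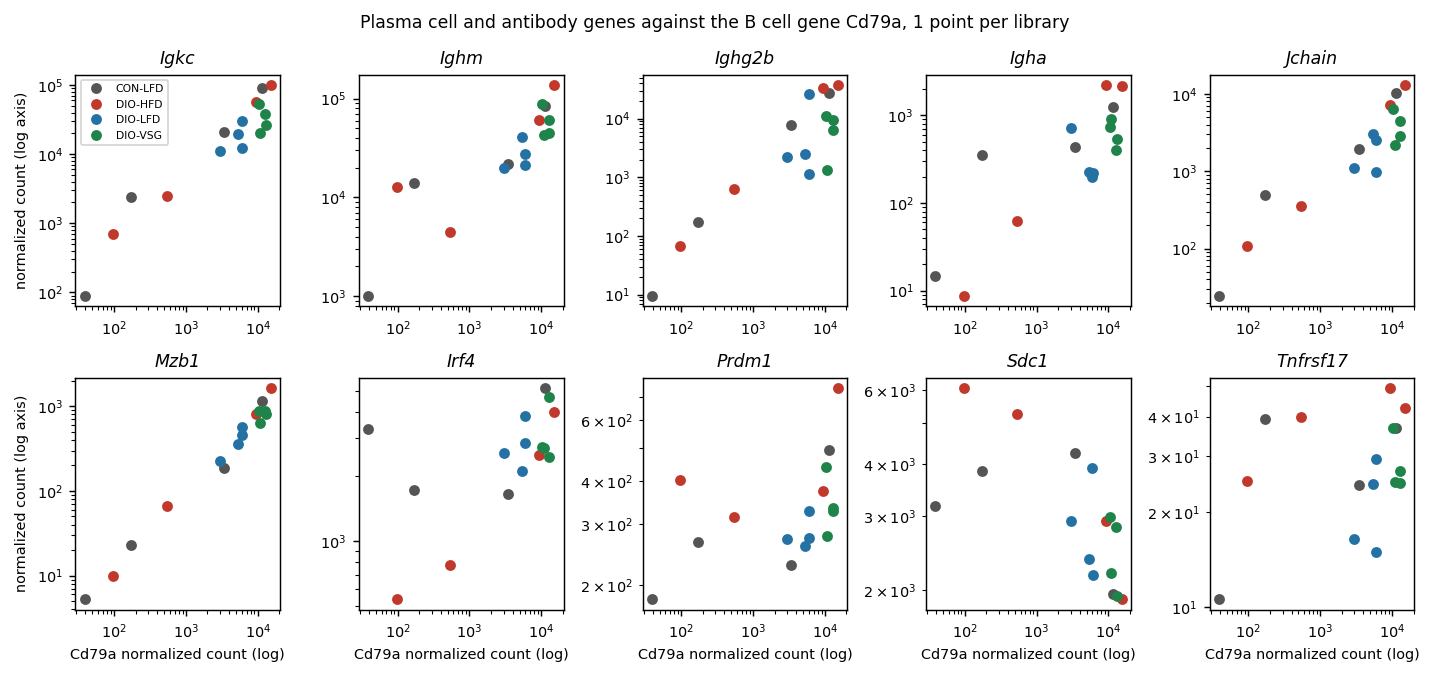
Each of the 10 genes against Cd79a, a signalling subunit of the B cell receptor, with 1 point per library on log axes (normalized counts). Mzb1 follows Cd79a over its whole range, Ighm per Cd79a is highest in CON-LFD replicate 4 (81.6) and DIO-HFD replicate 3 (132), and Sdc1 runs the other way.

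The genes most like each member were searched among all genes tested, by Pearson r of log2(normalized count + 1) over 16 libraries. Mzb1 was closest to the B cell genes Ms4a1 (0.994), Ccr6 (0.993) and Cd22 (0.993). Igkc was closest to Timd4 (0.981), Clec4g (0.977) and Gm5281 (0.975), and Jchain to Ighv1-82 (0.975), Clec4g (0.975) and Iglc1 (0.972). Ighm was closest to Pdcd1lg2 (0.974), Ly9 (0.971) and Igkv1-117 (0.969), Ighg2b to Ighg2c (0.952), Igkv6-15 (0.931) and Clec4g (0.928), and Igha to Ighg3 (0.948), Ighv14-4 (0.937) and Igkv8-28 (0.924). The others had few close relatives. Prdm1 was closest to Iqgap1 (0.949), Nceh1 (0.914) and Lrrk1 (0.912), Irf4 to Gm20394 (0.943), 2010007H06Rik (0.915) and Asb13 (0.909), Sdc1 to D630045J12Rik (0.944), Etv4 (0.920) and Thop1 (0.918), and Tnfrsf17 to Tgfbi (0.912), Add1 (0.905) and Zfp90 (0.891). A correlation above 0.9 was shared by 893 genes for Mzb1 and 541 for Igkc, but by 6 for Prdm1 and 4 for Sdc1.

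Because B cell content varied so much, the secreted products were also set against Cd79a in the same library. The ratio of Jchain to Cd79a was 0.566, 0.622, 0.885 and 2.84 in CON-LFD and 0.851, 0.656, 1.11 and 0.762 in DIO-HFD. It was 0.362, 0.163, 0.416 and 0.556 in DIO-LFD and 0.220, 0.621, 0.345 and 0.199 in DIO-VSG. In this ratio all DIO-HFD libraries lay above all those of DIO-LFD and DIO-VSG, and all CON-LFD libraries lay above all those of DIO-LFD. Of the genes tested apart from Cd79a, with Jchain counted, 0.0377% and 0.217% did so. These shares cover genes of all kinds, not only those of B cells. For a gene that does not follow B cells the ratio mostly reflects Cd79a, so small shares were set beforehand. They therefore do not measure how unusual Jchain is. Other ratios overlapped at least in part. Ighm per Cd79a ran from 6.49 to 132 in DIO-HFD, 3.59 to 7.64 in DIO-LFD and 3.46 to 8.42 in DIO-VSG. Mzb1 per Cd79a ran from 0.0865 to 0.123 in DIO-HFD, 0.0668 to 0.0939 in DIO-LFD and 0.0579 to 0.085 in DIO-VSG, with overlap between DIO-HFD and DIO-LFD. Igkc per Cd79a ran from 4.62 to 7.09 in DIO-HFD, 2.05 to 4.96 in DIO-LFD and 1.88 to 5.11 in DIO-VSG, with slight overlap, while CON-LFD (2.27 to 14.2) spanned nearly all of these values.

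The same question was put to the fit by entering the B cell score as a covariate, which asks for differences at equal B cell content. In DIO-VSG relative to DIO-HFD the 6 antibody and secretory genes then all pointed down, where they had pointed up without the score. Ighg2b stood at -2.79 ± 0.92 (unadjusted p = 0.00893, limma adjusted p = 0.311), Igkc at -1.34 ± 0.49 (limma adjusted p = 0.368) and Jchain at -1.31 ± 0.51 (limma adjusted p = 0.396). Of the 10 genes, 6 were lower at an unadjusted p below 0.05 (background 4.18%), and 0 passed after limma adjustment (background 0%). In DIO-LFD relative to DIO-HFD, 3 were lower at an unadjusted p below 0.05 (background 6.48%) and 0 after limma adjustment (background 0%). They were Prdm1 (-0.78 ± 0.23, limma adjusted p = 0.148), Tnfrsf17 (-1.04 ± 0.33, limma adjusted p = 0.159) and Jchain (-1.08 ± 0.48, limma adjusted p = 0.285). In DIO-HFD relative to CON-LFD, Prdm1 stood at 0.54 ± 0.23 and Irf4 at -1.13 ± 0.42 (limma adjusted p = 0.223), and these were the 2 genes with an unadjusted p below 0.05 (background 16.4%), while 0 passed after limma adjustment (background 0.0895%). In DIO-VSG relative to DIO-LFD 0 of 10 had an unadjusted p below 0.05 (background 9.40%) and 0 passed after limma adjustment (background 0%). Against CON-LFD, 3 genes were lower at an unadjusted p below 0.05 in DIO-VSG (Jchain, Ighg2b and Igkc, background 2.91%) and 2 in DIO-LFD (Jchain and Igha, background 6.24%), and limma adjustment left 0 in both (backgrounds 0.00471% and 0.0330%). The score is itself an outcome of the mice and rests on a fit through libraries that differ by orders of magnitude.

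The composition of the heavy chains, as shares of the constant genes' normalized counts per kb, is given as a description. Ighm made up 60.7% ± 26.3 (SD, n = 4) in CON-LFD, 57.2% ± 26.3 in DIO-HFD, 45.8% ± 11.9 in DIO-LFD and 47.3% ± 4.38 in DIO-VSG. CON-LFD was split, with 82.0% and 84.7% in replicates 2 and 4 and 39.7% and 36.3% in replicates 1 and 3, and in DIO-HFD replicate 3 held 95.4% against at most 50.9% in the others. By reads alone the share of Ighm was 88.4% in CON-LFD replicate 2, where 1074 heavy-chain reads give an exact 95% binomial interval of 86.3% to 90.2%, and 97.2% in DIO-HFD replicate 3 (96.9% to 97.5%). These intervals cover counting error only. Ighg2b made up 9.47% ± 9.63, 13.4% ± 10.8, 13.8% ± 17.4 and 7.21% ± 3.55 in the 4 groups, with 39.7% in DIO-LFD replicate 3 and 3.10% to 7.67% in the other DIO-LFD libraries. Igha stayed at or below 2.89% in every library. Ighd, the IgD gene of naive B cells, was 14.0% ± 6.92 in CON-LFD, 14.9% ± 7.99 in DIO-HFD, 27.6% ± 6.07 in DIO-LFD and 34.3% ± 8.18 in DIO-VSG. DIO-LFD and DIO-VSG libraries held 20.9% or more and DIO-HFD libraries 20.5% or less, a narrow gap, and 1 CON-LFD library reached 21.9%. Ighd is only 1 of several heavy-chain genes read here. The share of other genes with such an order was not counted, and the difference was not tested. Among light chains Igkc held 72.2% to 92.3% in all libraries, with 87.4% ± 3.52 in CON-LFD, 87.3% ± 5.66 in DIO-HFD and 83.2% ± 3.51 in DIO-LFD. The share in DIO-VSG was 76.3%, 88.5%, 82.9% and 72.2%, the lowest group mean and the widest spread.

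**Figure D4:**
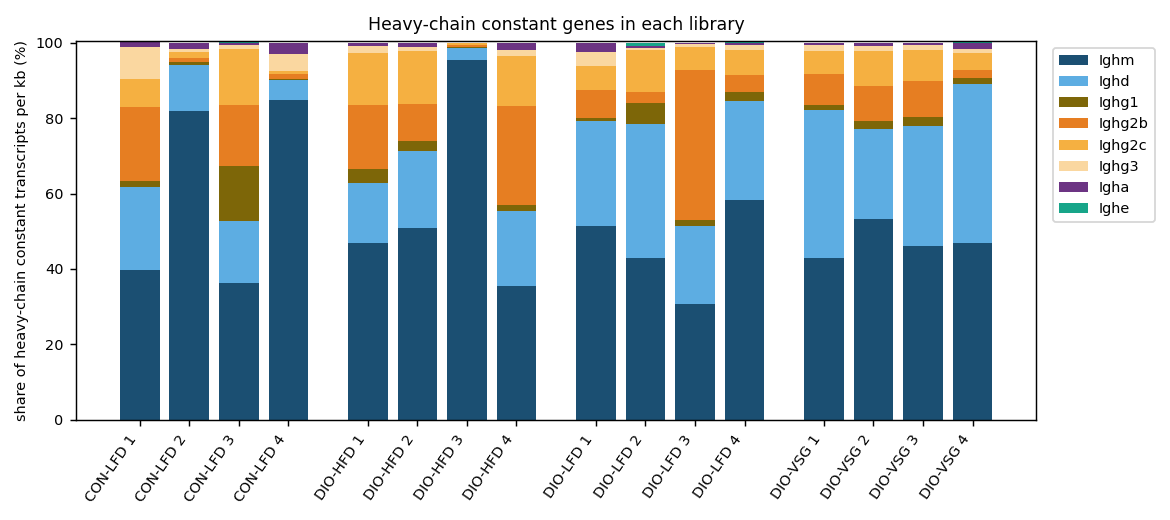
Stacked bars give the share of each heavy-chain constant gene in the summed normalized counts per kb of each library (%, bars total 100). Ighm fills 95.4% of DIO-HFD replicate 3, and Ighg2b takes 39.7% of DIO-LFD replicate 3.

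Of the wider list of 13 antibody constant genes, 12 were tested, Iglc4 being too low. limma called 0 of the 12 in each of the 6 comparisons. At an unadjusted p below 0.05 there were 0 in 5 comparisons and 2 in DIO-VSG relative to CON-LFD, a share near the 17.8% of all genes, Ighe (IgE, 4.40 ± 1.72, limma adjusted p = 0.268) and Ighd (3.84 ± 1.59, limma adjusted p = 0.268). Ighe had no read in CON-LFD replicate 2 and about 1 in replicates 1 and 4, so its fitted change depends on the pseudocount. All 12 had a log2 difference above 0 in DIO-VSG against DIO-HFD, with a median of 2.01 beside 52.5% of all genes above 0 and a median of 0.02, and likewise in DIO-LFD against DIO-HFD, with a median of 1.00 beside 51.6% and 0.01. In the latter Ighm was counted at 0.00 ± 1.15. Most B cell markers also lay above 0 in both comparisons, as given above. The directions of the constant genes did not hold in every setting. In DIO-LFD against DIO-HFD, Ighm stood at -0.96 with array weights and -0.87 with the B cell score. In DIO-VSG against DIO-HFD, Ighg2b stood at -2.35 with array weights and -2.79 with the B cell score, and Igkc at -0.62 and -1.34.

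The plasma cell program was listed under 24 symbols, of which 23 were in the table and all of these were tested, with 6 of the 10 members among them. The symbol not found, Tent5c, names the same gene as Fam46c, which was tested. limma called 0 in every comparison. The smallest p was that of Glcci1 in DIO-LFD relative to DIO-HFD (-0.85 ± 0.19, unadjusted p = 0.000437, limma adjusted p = 0.296). Glcci1 read 2491, 2666, 2433 and 2089 in DIO-HFD, above all DIO-LFD libraries (1154 to 1521) and all CON-LFD libraries (939 to 1972). Over all genes, 4.51% did not overlap between DIO-LFD and DIO-HFD and 4.76% between DIO-HFD and CON-LFD, in either direction. Glcci1 was named for its p in these same libraries. In DIO-HFD relative to CON-LFD, Glcci1 (0.82 ± 0.19, limma adjusted p = 0.167), Prdm1 and Sdf2l1 (0.67 ± 0.30), an endoplasmic reticulum protein, had an unadjusted p below 0.05, 3 of 23 beside 12.9% of all genes. Glcci1 alone did in DIO-VSG when set against DIO-HFD (-0.42 ± 0.19), 1 of 23 beside 13.2% of all genes. In DIO-LFD against DIO-HFD 3 did (Glcci1, Xbp1 and Tnfrsf17, beside 8.53%), in DIO-VSG against DIO-LFD 2 (Xbp1 and Glcci1, beside 9.71%) and in DIO-LFD against CON-LFD 1 (Xbp1, beside 6.26%). Xbp1, the transcription factor that expands the secretory apparatus in plasma cells and in other secretory cells, was highest in DIO-LFD, at 13483 ± 5939 against 8750 ± 1627 in DIO-HFD and 8353 ± 1425 in DIO-VSG, with 1 library at 22132. The log2 fold change of Xbp1 was 0.58 ± 0.24 for DIO-LFD against CON-LFD (limma adjusted p = 0.746) and -0.62 ± 0.24 for DIO-VSG against DIO-LFD (limma adjusted p = 0.509). For DIO-LFD against DIO-HFD it was 0.55 ± 0.24 (limma adjusted p = 0.554), beside 8 of 14 epithelial markers at an unadjusted p below 0.05 in the same comparison, of which Krt7 had the smallest (1.28 ± 0.28, limma adjusted p = 0.296). When DIO-VSG was set against CON-LFD, 6 of 23 had an unadjusted p below 0.05, beside 17.8% of all genes and 13 of 16 B cell markers, Cd38 (0.91 ± 0.35), Sec11c (0.77 ± 0.30), the B cell coactivator Pou2af1 (3.80 ± 1.58), Mzb1, Tnfrsf13b (2.09 ± 0.96) and Glcci1 (0.41 ± 0.19).

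Genes that act before and after the plasma cell stage were tested in the same fit. Of 10 genes of class switching and germinal centres, 1 had an unadjusted p below 0.05 in DIO-HFD relative to CON-LFD (Ung, -0.67 ± 0.29, limma adjusted p = 0.354), a share near the 12.9% of all genes, and 0 in the other 5 comparisons. Of 15 genes of plasma cell survival and homing, Il6, a survival cytokine, had the smallest p of the list in DIO-HFD relative to CON-LFD (1.67 ± 0.60, limma adjusted p = 0.27). Il6 stood at 2.11 ± 0.60 in DIO-LFD against CON-LFD (limma adjusted p = 0.512) and at 1.78 ± 0.60 in DIO-VSG against CON-LFD (limma adjusted p = 0.268), and these comparisons share the CON-LFD libraries. Il6 had no read in CON-LFD replicate 1, at most 4 in the other CON-LFD libraries and at most 22 elsewhere, so its fitted changes depend on the pseudocount. Cxcr4, a receptor of lymphocytes that also guides plasma cells to their niche, had the smallest p of the list in DIO-VSG against DIO-HFD (1.51 ± 0.68, limma adjusted p = 0.373), where all 12 T cell markers had a log2 difference above 0 with a median of 2.20, and 15 of 16 B cell markers with a median of 2.63. With the B cell score in the fit, Cxcr4 no longer had an unadjusted p below 0.05 there. In DIO-VSG against CON-LFD, 6 of the 15 had an unadjusted p below 0.05 (Il6, Cxcr4, Tnfrsf13c, Ccr9, Itga4 and Tnfrsf13b), beside 17.8% of all genes, 13 of 16 B cell markers and 10 of 12 T cell markers. The other 5 comparisons had at most 1. Of 9 Fc receptor and antibody transport genes, Pigr, which carries polymeric IgA and IgM across epithelium, had the smallest p of the list in DIO-LFD relative to DIO-HFD (0.88 ± 0.41, limma adjusted p = 0.58), beside the 8 of 14 epithelial markers at an unadjusted p below 0.05 given above. Against CON-LFD, 3 of the 9 had an unadjusted p below 0.05 in DIO-VSG (Fcmr, Fcamr and the lower Fcgrt, beside 17.8%) and 2 in DIO-LFD (Pigr and Fcgr1, beside 6.26%), and each other comparison had at most 1. The part of the T cell markers in the result for Cxcr4, and of the epithelial markers in that for Pigr, was not tested. None of these passed the limma adjusted threshold.

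The promoters of Jchain and Sdc1 are shown because the levels of these plasma cell genes ran in opposite directions across libraries (r -0.64). Both are RefSeq windows of 300 bases on GRCm38.p6, from 250 bases before the gene start, at chr5:88527848-88528147 (minus strand) and chr12:8771146-8771445 (plus strand). Capitals mark CACCTG in Jchain (1 match, 20.2% of 32851 promoters hold it) and GGGCGG in Sdc1 (3 matches, 35.7% hold it), searched on both strands. The G and C content was 42.3% for Jchain and 66.3% for Sdc1, against a median of 52.7% over all promoters, and the windows held 3 and 14 CG steps.
Jchain: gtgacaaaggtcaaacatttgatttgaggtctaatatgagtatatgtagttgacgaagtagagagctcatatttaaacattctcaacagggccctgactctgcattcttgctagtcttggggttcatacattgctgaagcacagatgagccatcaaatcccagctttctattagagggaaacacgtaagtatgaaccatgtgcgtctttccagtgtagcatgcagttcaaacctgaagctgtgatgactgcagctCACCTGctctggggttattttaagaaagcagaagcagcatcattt
Sdc1: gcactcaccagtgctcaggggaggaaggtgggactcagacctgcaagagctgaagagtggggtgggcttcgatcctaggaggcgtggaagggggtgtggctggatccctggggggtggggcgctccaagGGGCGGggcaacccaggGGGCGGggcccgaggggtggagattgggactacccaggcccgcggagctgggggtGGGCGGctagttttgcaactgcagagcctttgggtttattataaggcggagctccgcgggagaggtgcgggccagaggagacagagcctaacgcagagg

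Promoter windows were found for 5 of the 10 genes. The octamer ATGCAAAT, known from antibody gene promoters and present in 1.74% of all promoters, matched none of the windows of Jchain, Sdc1, Prdm1, Irf4 and Tnfrsf17 on either strand. That says only that these letters are not in these windows.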

How the data were processed

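RNA-Seq was performed on 16 contralateral mammary fat pads (4 groups of 4), and groups follow the submitters' labels. Per the authors' methods and processing notes, which name different aligners (STAR in one, TopHat2 2.0.7 with HTSeq 0.5.3p9 on mm10 in the other), reads were counted per gene and transformed with DESeq2. The deposited log2 values are variance-stabilized by the authors and were turned back into size-factor normalized counts and whole reads, and all values came out whole within 0.01 of a read. Genes with 10 or more normalized counts in 4 or more libraries were kept. log2(normalized count + 1) was fitted with limma 3.58.1 (R 4.3.3) on all libraries by group, with Benjamini-Hochberg adjustment over all genes per comparison and a threshold of 0.05. The scripts were tested on simulated data with a smaller spread than the antibody genes had in CON-LFD and DIO-HFD, so that test does not cover such spread. Further work used Python 3.11.15, pandas 2.3.3, numpy 2.4.6 and matplotlib 3.10.9. Alternatives were another pseudocount, no filter, the deposited values, limma-voom, other scalings, array weights, a replicate block, a B cell score, and leaving out each library. The members and lists were chosen with earlier results of these data known. Named genes are the members, their 3 most similar genes, listed antibody and plasma cell genes at an unadjusted p below 0.05, defining markers (1 is not reported here), and the gene of smallest p in other lists; Cd79a and Ighg2c as comparators and the variable segments were chosen after their values were seen. Same-numbered replicates of different groups had correlations of deviations of either sign (r from -0.61 to 0.53), and both ends were between CON-LFD and DIO-HFD.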

Additional observations from a re-analysis of the deposited data

Results flagged for a closer look

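For 2 of 40 combinations of gene and group, 1 library stood apart from the other 3 on the log2(normalized count + 1) scale by more than Dixon's 95% critical value, a rate that chance gives in about 1 of 20 groups. Irf4 read 4669 normalized counts in DIO-VSG replicate 3, against 2466, 2742 and 2721 in the other DIO-VSG libraries. Igha read 708 in DIO-LFD replicate 1, against 200.4, 219 and 226 in the other DIO-LFD libraries. On normalized counts themselves, a scale added after seeing the data, 4 combinations passed, these and Ighg2b in DIO-LFD, where replicate 3 read 26426, and Mzb1 in CON-LFD, where replicate 3 read 1163.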

How the results depend on the processing

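No gene of the 10 was called in any comparison, except with array weights, which gave 3 calls in DIO-HFD vs CON-LFD, 1 in DIO-VSG vs DIO-HFD and 1 in DIO-LFD vs DIO-HFD. Without a filter, with median scaling or with only the compared groups, 60 of 60 log2 differences kept their direction. The replicate block, which pairs libraries by a shared number only, left 0 genes called in each comparison and 60 of 60 directions as they were. Depth limited only the scarcest readings, such as Mzb1 and Igha in the lymphoid-poor libraries. The causes of the reversals below were not tested. A pseudocount of 5 turned the direction to these log2 values: in DIO-HFD vs CON-LFD Igha 0.05. The deposited values turned the direction to these log2 values: in DIO-HFD vs CON-LFD Igha 0.26, and in DIO-LFD vs DIO-HFD Igha -0.30, and in DIO-LFD vs CON-LFD Igha -0.04. limma-voom turned the direction to these log2 values: in DIO-HFD vs CON-LFD Igha 0.13. Quantile normalization turned the direction to these log2 values: in DIO-HFD vs CON-LFD Igha 0.08, and in DIO-LFD vs DIO-HFD Ighm -0.16, and in DIO-VSG vs CON-LFD Tnfrsf17 -0.02, and in DIO-LFD vs CON-LFD Prdm1 -0.00. Array weights turned the direction to these log2 values: in DIO-HFD vs CON-LFD Sdc1 -0.32, Irf4 0.22, Igha 2.53, and in DIO-VSG vs DIO-HFD Jchain -0.81, Ighm -0.03, Ighg2b -2.35, Igha -1.52, Igkc -0.62, and in DIO-LFD vs DIO-HFD Jchain -1.60, Mzb1 -0.70, Ighm -0.96, Ighg2b -2.32, Igha -2.83, Igkc -1.28, and in DIO-VSG vs DIO-LFD Ighg2b -0.03, and in DIO-LFD vs CON-LFD Igha -0.30. The B cell score as a covariate turned the direction to these log2 values: in DIO-HFD vs CON-LFD Jchain -0.12, Igkc -0.07, and in DIO-VSG vs DIO-HFD Jchain -1.31, Mzb1 -0.45, Ighm -0.63, Ighg2b -2.79, Igha -0.98, Igkc -1.34, and in DIO-LFD vs DIO-HFD Jchain -1.08, Mzb1 -0.21, Ighm -0.87, Ighg2b -1.51, Igha -0.89, Igkc -0.77, and in DIO-VSG vs DIO-LFD Jchain -0.24, Mzb1 -0.25, Sdc1 0.01, Irf4 -0.18, Ighg2b -1.28, Igha -0.09, Igkc -0.57, and in DIO-VSG vs CON-LFD Jchain -1.43, Mzb1 -0.29, Sdc1 0.16, Prdm1 -0.13, Irf4 -0.66, Ighm -0.27, Ighg2b -2.53, Igha -1.93, Igkc -1.41, Tnfrsf17 -0.33, and in DIO-LFD vs CON-LFD Jchain -1.20, Mzb1 -0.04, Sdc1 0.15, Prdm1 -0.24, Irf4 -0.48, Ighm -0.50, Ighg2b -1.25, Igha -1.84, Igkc -0.84. Leaving out each library in turn kept 919 of 960 directions, called 0 genes and gave these ranges where a direction turned: in DIO-HFD vs CON-LFD Jchain -0.63 to 2.25, Sdc1 -0.04 to 0.51, Ighm -0.16 to 1.96, Ighg2b -0.30 to 3.55, Igha -1.30 to 1.53, Igkc -0.73 to 2.59, and in DIO-VSG vs DIO-HFD Ighg2b -0.76 to 2.27, Igha -0.12 to 2.49, and in DIO-LFD vs DIO-HFD Jchain -0.93 to 1.37, Mzb1 -0.23 to 2.18, Ighm -0.85 to 0.80, Ighg2b -1.37 to 1.66, Igha -1.22 to 1.39, Igkc -0.52 to 1.87, and in DIO-VSG vs DIO-LFD Irf4 -0.07 to 0.28, and in DIO-VSG vs CON-LFD Irf4 -0.02 to 0.53, Tnfrsf17 -0.22 to 0.37, and in DIO-LFD vs CON-LFD Jchain -0.34 to 2.54, Prdm1 -0.14 to 0.33, Irf4 -0.15 to 0.40, Ighm -0.16 to 1.97, Igha -0.99 to 1.11.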

Other observations

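The variable segments, which join the constant genes in an antibody transcript, were read after the constant genes and chosen after their values were seen, so what follows is a description. In DIO-HFD replicate 3, the library with the highest share of Ighm, Ighv11-2 held 45.1% of 215 Ighv reads (exact 95% binomial interval 38.3% to 52%) and Igkv14-126 held 38.3% of 332 Igkv reads (33% to 43.7%). In the other 15 libraries Ighv11-2 held 0% to 12.5% and Igkv14-126 0.597% to 13.8%, with the highest value of both in CON-LFD replicate 4 (12.5% and 13.8%). In CON-LFD replicate 2, where the ratio of Ighm to Igkc (11.3) was above that of CON-LFD replicate 4 (5.77), Ighv11-2 held 0 of 25 Ighv reads (upper limit 13.7%) and Igkv14-126 held 3 of 55 Igkv reads (5.45%, 1.14% to 15.1%). As background, this heavy and light pair is known from B-1a cell antibodies that bind phosphatidylcholine.

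In DIO-LFD replicate 3, the library where Ighg2b held 39.7% of heavy-chain expression per kb, Igkv17-127 held 52.3% of 11808 Igkv reads (51.4% to 53.3%) and Ighv1-62-2 held 29.5% of 6436 Ighv reads (28.4% to 30.6%). Elsewhere they held at most 3.39% and 1.77%. Near-identical copies limit the naming of segments. Of the windows of 76 bases, 91.1% in Ighv1-62-2 also occur in Ighv1-71, 24.4% in Ighv11-2 occur in Ighv11-1, 20.1% in Igkv17-127 occur in Igkv17-121 or another gene, and 0% in Igkv14-126 are shared. The leading Ighv segment of a library held 18.2% to 32% of its Ighv reads in CON-LFD, 7.75% to 45.1% in DIO-HFD, 6.27% to 29.5% in DIO-LFD and 6.9% to 11.1% in DIO-VSG. The leading Igkv segment held 12.7% to 28.3%, 9.86% to 38.3%, 7.52% to 52.3% and 7.7% to 12% in the same order. The 32% and the 12.7% both came from CON-LFD replicate 2, on only 25 Ighv and 55 Igkv reads. Intervals cover counting error only.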
